A study of Mus musculus with 13 samples.

Results

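Brain RNA of mice with the P195A substitution of Adar on both alleles (P195A/P195A, n = 4) was compared with that of mice carrying it on 1 allele beside a wild-type allele (P195A/+, n = 3). The comparison asks what a second mutant allele, and with it the loss of the last wild-type copy, adds to the first. It uses 7 of the 13 libraries of the series, chosen by genotype label alone, and none by a measured value. The other libraries are 3 of wild type and 3 of P195A/-, where the mutant allele faces a null allele; they entered the gene fit to estimate the spread and serve as a background here. All animals were of the C57BL/6 strain, and each library is the whole brain of 1 mouse.

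The P195A/P195A mice were 3 females and 1 male, aged 42, 42, 48 and 48 days at collection and weaned at 19 or 20 days. The P195A/+ mice were 2 females and 1 male, all aged 43 days and weaned at 21 days. Age therefore differs between the genotypes as well as the number of mutant alleles. The allele is carried in every cell, so a change seen in the whole brain cannot be placed in a cell type by the design.

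ADAR1, the product of Adar, deaminates adenosines of double-stranded RNA to inosine, and sequencing reads inosine as G. The long, interferon-induced form of the enzyme carries at its amino end a domain that binds RNA and DNA in the left-handed Z form, and the substituted proline lies in that domain. Editing by ADAR1 keeps cellular double-stranded RNA from being taken for viral RNA by sensors such as MDA5, PKR and ZBP1, while much of the recoding of neuronal receptors is done by the related enzyme ADAR2, the product of Adarb1.

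The altered codon was located in the GENCODE M21 transcript of Adar with the longest coding sequence, at chr3:89735396-89735398 (GRCm38, plus strand). It is shown because it is the only base triplet by which the 2 groups were designed to differ, with the wild-type proline codon in capitals.
Adar codon: agggggaaacctCCTttgtggagcctt

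Weights at weaning in P195A/P195A mice were 6.4, 8.4, 7.3 and 8.0 g, against 9.0, 10.3 and 10.7 g in P195A/+ mice. The ranges did not overlap. The means were 7.53 g ± 0.88 (SD, n = 4) and 10 g ± 0.89 (SD, n = 3). The means differed by -2.48 g (P195A/P195A minus P195A/+), and the two-sided exact permutation test gave p = 0.0571, the lowest value that 4 against 3 animals allow. P195A/P195A mice were also weighed 1 or 2 days younger. Divided by age at weaning, the weights were 0.386 and 0.476 g per day on average, and these ranges did not overlap either (exact permutation p = 0.0571).

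The 7 libraries held 13539583 to 21272338 gene counts, with a lower depth in P195A/P195A (13539583 to 20687868) than in P195A/+ (18539919 to 21272338). Xist and Ddx3y levels matched the labelled sex of every animal. Along the first principal component of the 7 libraries, which held 34.8% of the variance, P195A/P195A replicate 2 stood at 59.0 and replicate 3 at -50.3, with the P195A/+ libraries between -30.0 and 13.2. The gene calls are therefore also given without those replicates, and list medians beside the left-out libraries that moved them most. The genotype labels have no check of their own in these tables, because a point mutation leaves the transcript in place. Gm3608 was at 0 to 0.725 CPM (counts scaled to a common library size with TMM factors) in all 7 libraries and at 28.4 to 30.7 CPM in wild type, so it does not tell the genotypes compared here apart.

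Adar itself (ENSMUSG00000027951) had 346, 282, 340 and 322 CPM with 2 mutant alleles and 242, 245 and 232 CPM with 1. Every P195A/P195A library stood above every P195A/+ library. The means were 323 ± 29 (SD, n = 4) and 240 ± 6.6 (SD, n = 3), a log2 fold change of 0.43 (SE 0.077) that missed the threshold in edgeR's quasi-likelihood test across 19962 genes (adjusted p = 0.0861). It passed in DESeq2 (adjusted p = 0.000418) and in edgeR without P195A/P195A replicate 2 (adjusted p = 0.0289). Wild-type libraries held 187, 165 and 189 CPM. The step from 1 to 2 mutant alleles and the step from 0 to 1 differed by 0.02 on the log2 scale (edgeR adjusted p = 0.999).

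Of the other ADAR genes, Adarb1 had 276 to 327 CPM in P195A/P195A and 280 to 352 CPM in P195A/+, and the groups overlapped. Its log2 fold change was -0.06, and the sign turned among females alone (0.05), without P195A/P195A replicates 2 and 3 (0.03) and without P195A/+ replicate 3 (0.02). Adarb2, the third family member, for which no editing activity is known, had 60.7, 74.1, 45.5 and 53.1 CPM against 41.2, 43.2 and 41.9 CPM. The groups did not overlap, and the log2 fold change of 0.47 (SE 0.139) had an edgeR adjusted p of 0.684. Over the 14 measured members of a list of ADAR family and cofactor genes the median log2 fold change was 0.04, beside 0.01 over all genes tested.

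The 4 genes that passed, at an adjusted p under 0.05, were all higher in P195A/P195A and make up 0.0200% of the genes tested. They were Cdhr1, Doc2g, S100a5 and Gm41396, each with an edgeR adjusted p of 0.0425. No gene passed in the lower direction. At an unadjusted p under 0.05 stood 1170 genes (5.86%), 600 higher (3.01%) and 570 lower (2.86%). No overlap between the groups was found in 1062 genes (5.32%), 532 higher (2.67%) and 530 lower (2.66%). Of all genes 51.8% were above 0 and 48.2% below. DESeq2 called 38 genes, 29 higher and 9 lower, the 4 among them.

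Cdhr1 (ENSMUSG00000021803, chr14:37077857-37098347), a cadherin-related gene of photoreceptors and of the mitral and tufted cells of the olfactory bulb, had 19.6, 21.5, 25.2 and 23.1 CPM in P195A/P195A. P195A/+ libraries had 6.39, 4.59 and 4.33 CPM. The groups lay far apart, and the log2 fold change was 2.13 (SE 0.292). The 3 wild-type libraries stood between the groups, at 15.6, 12.3 and 14 CPM. The P195A/- libraries, which also lack a wild-type allele, had 10.1, 3.42 and 4.22 CPM.

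Doc2g (ENSMUSG00000024871, chr19:4003313-4007005), a C2-domain gene of the same cells, had 3.53, 3.65, 5.70 and 4.84 CPM against 1.09, 1.06 and 0.999 CPM. The groups did not overlap, and the log2 fold change was 2.07 (SE 0.323). Its wild-type libraries also lay between, at 2.42, 2.58 and 2.89 CPM, and its P195A/- libraries had 2.18, 1.53 and 0.777 CPM.

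S100a5 (ENSMUSG00000001023), a calcium-binding protein of olfactory sensory neurons, had a mean under 1 CPM, which is below the minimum of the naming rule, and is named here after its values were seen. It had 0.599, 0.876, 1.13 and 1.18 CPM in P195A/P195A and no count in any P195A/+ or P195A/- library. Wild-type libraries had 0.337, 0.263 and 0.407 CPM. S100a5 passed the filter on low counts only through its P195A/P195A libraries, so its call is not independent of that filter. Its 65 counts over the P195A/P195A group were set against a floor of 3 counts over the P195A/+ group. At that floor it was 19.2-fold higher, with neither the counting error of the 65 counts nor the spread between animals included. S100a5 lies on chromosome 3, 508 kb beyond Tpm3 and so near Adar. Its measured neighbour S100a6 had 1.68 to 2.58 CPM against 2.52 to 3.43 CPM, a log2 fold change of -0.55. Whether the position bears on the level of S100a5 was not tested.

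Gm41396, a gene of unknown role annotated as antisense at chr15:98934325-98940553 (GRCm38), had 1.68, 1.24, 1.87 and 3.72 CPM against 0.0546, 0.193 and 0.0476 CPM. All P195A/P195A libraries were above all P195A/+ libraries, and P195A/- libraries had 0.124 to 0.305 CPM. Wild-type libraries had 0.281, 0.210 and 0.632 CPM. Gm41396 too passed the filter on low counts only through its P195A/P195A libraries. These are 146 against 6 counts, a ratio of 21.6 (95% exact interval 9.67 to 59.7, counting error only). It overlaps the start of Tuba1b, an alpha-tubulin gene on the other strand, which had 315 to 470 CPM and 409 to 443 CPM and a log2 fold change of -0.15. Unless the counting used strand, which the labels and notes do not state, reads of Gm41396 and Tuba1b in the shared stretch cannot be told apart.

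**Figure D1:**
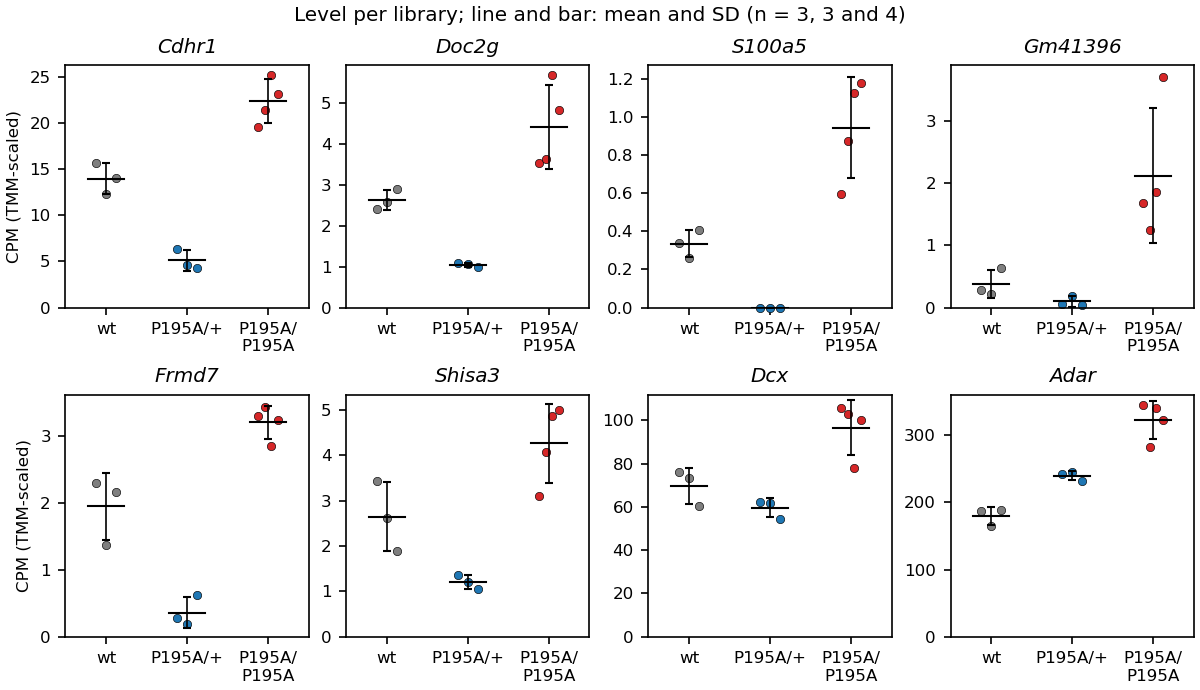
CPM of 8 genes in each library of wild type, P195A/+ and P195A/P195A (points), with the mean (line) and SD (bar) per genotype; each panel has its own linear axis from 0. Every P195A/P195A library lies above every P195A/+ library in each panel; the wild-type mean lies between them in all but Adar, where wild type is lowest at 165 to 189 CPM.

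The calls depended on which animals were used. Without P195A/P195A replicates 2 and 3 no gene passed, and Cdhr1 kept a log2 fold change of 2.06 (edgeR adjusted p = 0.159). No gene passed with sex as a covariate, where Cdhr1 was at 2.12 (adjusted p = 0.0633), nor among animals of 42 to 43 days, where it was at 2.02 (edgeR adjusted p = 0.241). Leaving out P195A/P195A replicate 1 or 4 or any P195A/+ replicate also left 0 genes, leaving out P195A/P195A replicate 3 gave 11, and the log2 fold change of Cdhr1 stayed between 2.02 and 2.32.

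Of the genes just outside the threshold, Frmd7, a cytoskeletal gene known for inherited nystagmus, had 3.29, 3.43, 2.85 and 3.24 CPM against 0.273, 0.193 and 0.618 CPM (log2 fold change 3.11, edgeR adjusted p = 0.0505). Shisa3, of a family that modulates Wnt and growth factor receptors, had 3.11 to 5.01 CPM against 1.05 to 1.36 CPM (1.82, edgeR adjusted p = 0.0779). Lgr6, a receptor for R-spondins, had 8.74 to 16.3 CPM against 5.22 to 6.12 CPM (1.08, edgeR adjusted p = 0.0861). In these 3 genes the groups stood apart. P195A/- libraries had 0.305 to 1.56 CPM of Frmd7, 0.722 to 1.56 CPM of Shisa3 and 7.11 to 8.91 CPM of Lgr6.

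Dcx, the microtubule protein of migrating neuroblasts, had 106, 103, 78.1 and 100 CPM against 62.5, 61.7 and 54.6 CPM, a log2 fold change of 0.70 (edgeR adjusted p = 0.0683). Omp, the marker protein of mature olfactory sensory neurons, had 2.04, 4.45, 1.77 and 2.30 CPM against 0.546, 0.484 and 0.856 CPM (2.04, edgeR adjusted p = 0.151). In both, the groups did not overlap. Wild-type Omp was at 1.46 to 1.90 CPM, above P195A/+ and overlapping P195A/P195A. P195A/- libraries had 57.2 to 69.6 CPM of Dcx and 0.305 to 0.622 CPM of Omp.

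A list of 15 olfactory bulb markers, written with earlier results of these libraries known and so no independent evidence of its direction, had a median log2 fold change of 0.55, beside 0.01 over all genes. When single libraries were left out, the median ran from 0.39 to 0.63. Of the list's members 13 were higher, 2 passed, and 9 did not overlap in the higher direction, against 2.67% of all genes. Sp8, a transcription factor of bulb interneurons, had 10.1, 8.76, 8.89 and 10.7 CPM against 2.07, 3.24 and 5.28 CPM (1.44, edgeR adjusted p = 0.0861). Gng4, a G-protein subunit of granule cells, had 52.5 to 67.1 CPM against 38.6 to 40.9 CPM (0.55, edgeR adjusted p = 0.0869). Its wild-type libraries, at 49.1 to 57.6 CPM, overlapped P195A/P195A. P195A/- libraries had 2.78 to 3.92 CPM of Sp8 and 36.8 to 41.2 CPM of Gng4. Tbx21, a transcription factor of mitral and tufted cells, had 0.472 to 1.02 CPM against 0 to 0.109 CPM.

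Not every bulb gene stood apart. Reln, which encodes the secreted protein reelin of mitral cells and of many neurons elsewhere, had a log2 fold change of -0.02, and Calb2, the calretinin gene of bulb interneurons and cerebellar granule cells, one of -0.22. Th, the dopamine-synthesis enzyme, had 4.6 to 9.92 CPM against 4.09 to 5.80 CPM, and the groups overlapped. The summed level of the list was 754 to 799 CPM in P195A/P195A, 612 to 790 CPM in P195A/+ and 740 to 795 CPM in wild type. In whole-brain libraries more cells of a type, more tissue of a region and more RNA per cell cannot be told apart, and the part of each in the calls was not tested.

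Among 16 neuroblast and progenitor genes the median was 0.20, with 11 higher. At an unadjusted p under 0.05 stood 5 higher members, where 3.01% of all genes did, and 1 lower member, Nes, where 2.86% did. Leaving out single libraries moved the median from 0.12 (P195A/+ replicate 3) to 0.29. The 5 were Dcx, Dlx1, Dlx2, Sox11 and Cd24a; Dlx1 and Dlx2, transcription factors of forebrain interneurons and their precursors, are also in the bulb list. Dlx2 had 1.17 to 1.59 CPM against 0.338 to 0.655 CPM (1.5), and Dlx1 7.66 to 12.2 CPM against 4.76 to 5.41 CPM (1.04, edgeR unadjusted p = 0.00134). Among genes of dividing cells, Mki67 was at 0.23, Top2a at -0.21 and Cdk1 at 0.07, all overlapping.

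**Figure D2:**
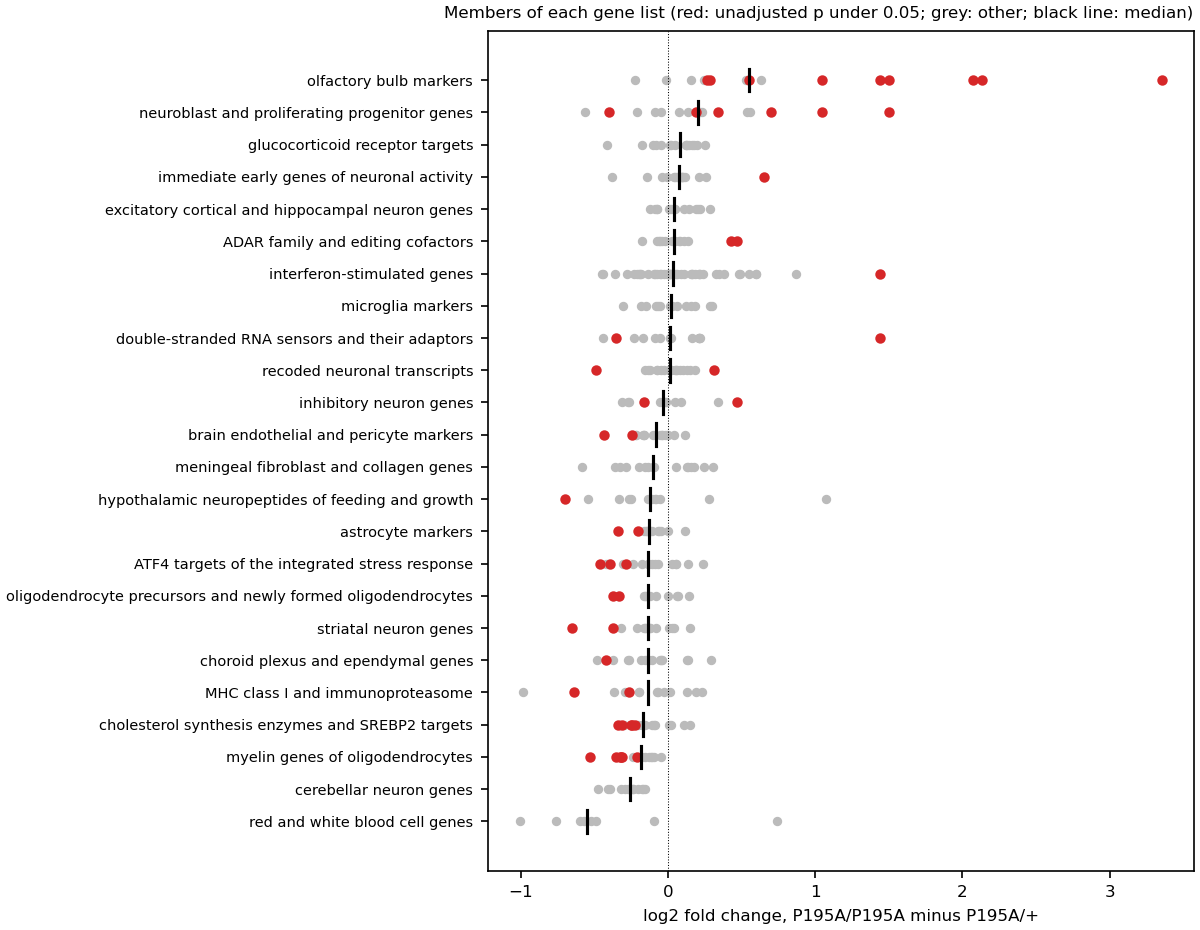
log2 fold change of P195A/P195A minus P195A/+ for each measured member of 24 gene lists (points; red where the unadjusted edgeR p is under 0.05), with the list's median as a black line. The olfactory bulb list has the highest median (0.55), the interferon list sits at 0.03, and all 15 myelin and all 14 cerebellar genes lie below 0.

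Myelin genes of oligodendrocytes were lower without any passing: all 15 had a negative log2 fold change, with a median of -0.19, and 6 reached an unadjusted p under 0.05, where 2.86% of all tested genes did. Opalin, a membrane protein of mature oligodendrocytes, had 11.0, 11.0, 13.1 and 11.7 CPM against 16.1, 17.1 and 17.5 CPM (-0.53, SE 0.138, edgeR adjusted p = 0.450). These ranges were apart, but wild-type Opalin, at 9.67 to 12.7 CPM, overlapped P195A/P195A. Mal had 234 to 283 CPM against 294 to 398 CPM (-0.36), and Mbp, the main myelin basic protein gene, 1416 to 1664 CPM against 1505 to 1937 CPM with overlap. Without P195A/+ replicate 2 the median of the list was -0.28. Without P195A/+ replicate 1 it was -0.14, with 2 of 15 members higher. Summed over the list, P195A/P195A held 7078 to 7816 CPM, P195A/+ 7598 to 9244 CPM and wild type 7079 to 7930 CPM.

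Medians of the astrocyte, cerebellar and choroid plexus lists were also below 0. So were those of the oligodendrocyte precursor (-0.13), striatal (-0.14), endothelial (-0.08), hypothalamic (-0.12), meningeal (-0.10) and inhibitory neuron (-0.04) lists. Among astrocyte genes 15 of 16 were lower (median -0.13), but among females 8 of 16 were (median 0.001). Without P195A/+ replicate 3 the median was -0.05, without P195A/P195A replicate 2 it was -0.06 and without P195A/+ replicate 2 it was -0.22. S100b, a calcium-binding protein of astrocytes, had 132 to 141 CPM against 149 to 187 CPM (-0.34). Among cerebellar neuron genes all 14 were lower (median -0.26) and none reached an unadjusted p under 0.05. Without P195A/+ replicate 2 the cerebellar median was -0.41, and without P195A/+ replicate 1 it was -0.18, with 1 of 14 higher. Their summed level was 2467 to 2781 CPM against 2610 to 3288 CPM. Choroid plexus genes had a median of -0.14, which was -0.05 without P195A/P195A replicate 2 and -0.08 without P195A/+ replicate 2. The member with the smallest p was Ttr, the transthyretin gene, with 235, 218, 239 and 257 CPM against 312.5, 351 and 292 CPM (-0.42, edgeR adjusted p = 0.342). Wild-type Ttr was at 247 to 296 CPM.

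Of 19 cholesterol synthesis genes 15 were lower, with a median of -0.17 and 5 at an unadjusted p under 0.05 (Idi1, Fdps, Msmo1, Stard4 and Mvk), a level that 2.86% of all genes reached in this direction. Leaving out single libraries moved the list median from -0.25 to -0.13. Fdps, which makes farnesyl diphosphate, had 23.5 to 27.5 CPM against 29.3 to 35.1 CPM (-0.31, edgeR adjusted p = 0.823). Blood-cell genes, carried by blood left in the tissue, had a median of -0.55 over 8 measured members, with Hbb-bs at 179 to 387 CPM against 265 to 704 CPM and overlap. That median rested on 1 library: without P195A/+ replicate 3 it was -0.08. Without P195A/P195A replicate 2 it was -0.36, and among females it was 0.11, with 5 of 8 higher. Microglial genes had a median of 0.02 with no stable sign, at -0.14 without P195A/P195A replicate 3, 0.13 without replicate 2 and -0.24 at 42 to 43 days.

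Interferon-stimulated genes stood at similar summed levels in both genotypes. Of 51 listed, 46 were measured, 29 of them higher and 17 lower, with a median of 0.03, and 1 had an unadjusted p under 0.05, a smaller share than the 3.01% of all genes in that direction. The median ran from -0.001 without P195A/+ replicate 1 to 0.12 without P195A/+ replicate 3. Their summed level was 275, 277, 270 and 268 CPM in P195A/P195A, against 254, 266 and 276 CPM in P195A/+, overlapping, and both below the 290 to 308 CPM of wild type. P195A/- libraries, analysed in the same fit, held 339 to 388 CPM.

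The member with the smallest p was Dhx58, which encodes LGP2, a regulator of the sensors RIG-I and MDA5. It had 2.16, 1.61, 1.33 and 1.47 CPM against 0.546, 0.677 and 0.571 CPM (log2 fold change 1.44, SE 0.364, edgeR adjusted p = 0.425). All P195A/P195A libraries stood above all P195A/+ libraries, and wild type was at 0.368 to 0.786 CPM. Ifit1, which encodes an RNA-binding antiviral protein, was at 0.01 and Eif2ak2, the gene of PKR, at 0.21 with 8.64 to 20.2 CPM against 12.5 to 13.8 CPM.

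Of 14 MHC class I and immunoproteasome genes 10 were lower (median -0.14). Leaving out single libraries moved that median from -0.31 (P195A/P195A replicate 3) to -0.06 (P195A/+ replicate 1), with -0.28 without P195A/+ replicate 2 and -0.09 without P195A/+ replicate 3. Psme1, a proteasome activator, had 7.81 to 11.9 CPM against 10.4 to 18.2 CPM. ATF4 targets, which mark the integrated stress response that PKR can start, had a median of -0.13, and 13 of 18 were lower; the median was -0.23 without P195A/P195A replicate 3 and -0.09 without replicate 2. Psat1, of serine synthesis, had 107 to 145 CPM against 144 to 189 CPM (-0.39), and Atf4 itself was at -0.13. Among immediate early genes of neuronal activity the median was 0.07, and it turned to -0.05 without P195A/P195A replicate 3 and to -0.24 at 42 to 43 days. Fosb had 14.3, 11.7, 19.7 and 20.9 CPM against 10, 10.6 and 11.2 CPM (0.65, edgeR adjusted p = 0.654), and wild type, at 16.4 to 20.1 CPM, lay in the P195A/P195A range.

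The 11 genes of at least 1 CPM in the 386 kb from Adar to Tpm3 (chr3:89715022-90100902, GRCm38) were all above 0, with log2 fold changes of 0.07 (4933434E20Rik) to 0.65 (Il6ra). None passed. An unadjusted p under 0.05 was reached by 8, where 3.01% of all genes did in this direction, and in 4 (Adar, Il6ra, Ubap2l and Atp8b2) the groups did not overlap, where 2.67% of all genes did not. The direction of 4933434E20Rik turned among animals of 42 to 43 days (-0.10) and without P195A/P195A replicate 3 (-0.04), and that of Hax1 among animals of 42 to 43 days (-0.01). Within 3 Mb on either side, 96 other genes had a median of -0.04.

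Il6ra, the receptor chain for interleukin 6, had 15.9, 11.6, 19.6 and 17.6 CPM against 9.17, 10.7 and 11.1 CPM (edgeR adjusted p = 0.450). Ubap2l, a stress granule protein, had 205, 183, 155 and 194 CPM against 127, 151 and 134 CPM (0.42, edgeR adjusted p = 0.231). Atp8b2, a phospholipid flippase, had 225, 225, 228 and 242 CPM against 195.1, 183 and 183 CPM (0.30, edgeR adjusted p = 0.425). In each, wild type was below both groups, at 7.83 to 8.31, 92.2 to 94.2 and 108 to 121 CPM.

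The P195A/P195A libraries differed among themselves here. Relative to the P195A/+ mean, the median log2 ratio of the 10 genes other than Adar was 0.36, 0.42 and 0.37 in replicates 1, 3 and 4, and -0.10 in replicate 2. For Atp8b2 the step to the second mutant allele differed from the step to the first by -0.39 on the log2 scale (edgeR adjusted p = 0.958). For 4933434E20Rik the difference was -0.62 (edgeR adjusted p = 0.958).

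**Figure D3:**
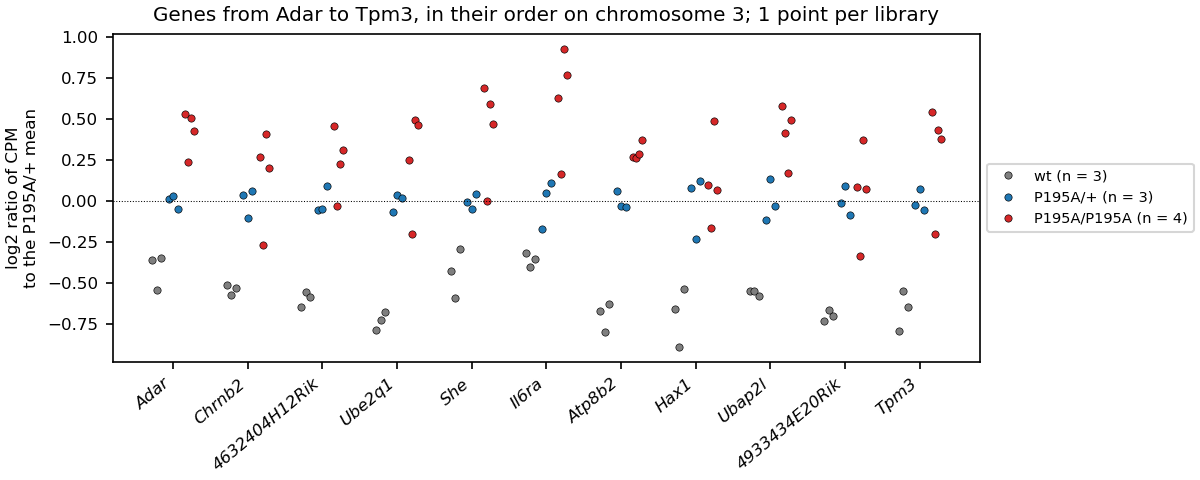
log2 ratio of CPM to the P195A/+ mean for the 11 genes from Adar to Tpm3 in chromosomal order, 1 point per library. Wild-type libraries lie below 0 for every gene; P195A/P195A replicates 1, 3 and 4 have medians of 0.36 to 0.42 over the 10 genes other than Adar, and replicate 2 one of -0.10.

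Whether the second mutant allele acts differently from the first was tested as a difference of the 2 steps in the same fit; both steps use the P195A/+ libraries. No gene passed in edgeR, where 989 (4.95%) had an unadjusted p under 0.05. DESeq2 called 34 and limma-voom 2. For Cdhr1 the steps differed by 3.59 on the log2 scale (edgeR adjusted p = 0.189), and for Doc2g by 3.39 (edgeR adjusted p = 0.189). In both genes every P195A/+ library lay below every library of wild type and of P195A/P195A.

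Editing was read at 42329 sites with a reference A that both comparison tables list, and 11689 of these had at least 10 reads in each of the 7 libraries and a pooled level of 1 to 99%. The wild-type reads of the tables were identical at all joined sites, so the tables hold the same wild-type counts. Median depth at tested sites was 18 to 31 reads per library in P195A/P195A and 23 to 33 in P195A/+, which leaves single sites imprecise.

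No site passed in edgeR's quasi-likelihood test on edited and unedited reads, at 0% of 11689. An unadjusted p under 0.05 was reached by 547 sites (4.68%), 242 higher (2.07%) and 305 lower (2.61%). No overlap was found at 639 sites (5.47%), 266 higher (2.28%) and 373 lower (3.19%). Summed over the sites of a gene, no gene of 859 passed (0%). An unadjusted p under 0.05 was reached by 59 genes (6.87%), 17 higher (1.98%) and 42 lower (4.89%), and 73 genes (8.50%) did not overlap, 25 higher (2.91%) and 48 lower (5.59%).

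Recoding of neuronal transcripts was read at single coding sites. For each of 20 listed genes the tested coding site with the highest wild-type level was taken, a choice made after values were seen but on wild-type reads alone. The sites that carry this result are shown from GENCODE M21 transcripts (GRCm38), with 10 bases on each side and the edited adenosine in capitals.
Gria2, chr3:80692286-80692286, minus strand: atcctcattaAgaaatgcggt
Gria3, chrX:41654252-41654252, plus strand: ctcagcattaAgaacgcctgt
Gria4, chr9:4456006-4456006, minus strand: ttcctcattaAgaaatgctgt
Cyfip2, chr11:46272643-46272643, minus strand: cagatacattAagaccagtgc
Tmem63b, chr17:45662949-45662949, minus strand: tacgagttccAgtttggcgca
Kcna1, chr6:126642158-126642158, minus strand: tgtgctgacaAttgccctgcc

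The first 3 are the arginine-to-glycine sites of AMPA receptor subunits, where AGA becomes GGA. Gria2 was edited at 71.9, 75.4, 70.2 and 70.4% in P195A/P195A, against 72.2, 69.9 and 72.3% in P195A/+. Gria3 was edited at 94.1, 92.8, 96.0 and 91.4% against 91.4, 92.2 and 91.2%. Gria4 ranged from 55.6 to 75.0% against 55.8 to 83.2%. The genotypes overlapped at all 3.

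Cyfip2, a regulator of actin at synapses recoded from lysine (AAG) to glutamate (GAG), stood at 77.7, 77.1, 76.5 and 77.7% against 72.8, 79.7 and 79.8%. Tmem63b, an osmosensitive channel recoded from glutamine (CAG) to arginine (CGG), stood at 67.9, 68.5, 69.0 and 69.6% against 66.3, 69.9 and 59.8%. Htr2c, the serotonin 2C receptor, ranged from 74.5 to 92.3% against 83.3 to 84.6%, and Gabra3, a GABA-A receptor subunit, from 94.1 to 96.4% against 94.6 to 98.3%. In 19 of the 20 genes the groups overlapped, and of all tested sites 5.47% did not overlap, so 1 such site in 20 is near the background.

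The site without overlap was that of Kcna1, a potassium channel whose edited codon changes from isoleucine (ATT) to valine (GTT). It was edited at 37.5, 39.1, 34.0 and 39.1% in P195A/P195A, against 49.3, 47.1 and 44.7% in P195A/+, with 261 to 445 reads per library. The groups did not overlap; the log2 odds ratio was -0.57 (SE 0.193, edgeR unadjusted p = 0.0030, adjusted p = 0.997). Wild type ranged from 34.7 to 45.8% and overlapped both P195A/P195A and P195A/+. Over all 54 tested coding sites of the 20 genes, 1 was higher and 1 lower at an unadjusted p under 0.05, where 2.07% and 2.61% of all sites were. The median difference was -0.20 points, beside -0.30 points over all sites.

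By the rule of most reads, 22 coding sites were taken in the 22 listed genes, 15 of them tested. Of those 15, 14 overlapped between the genotypes, and Kcna1 was again the other, beside 5.47% of all sites without overlap. In 4 of the 22 the edited share was 0% in all 7 libraries (Gabra3, Cyfip2, Nova1 and Son), so the deepest site of these genes was not an edited one.

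**Figure D4:**
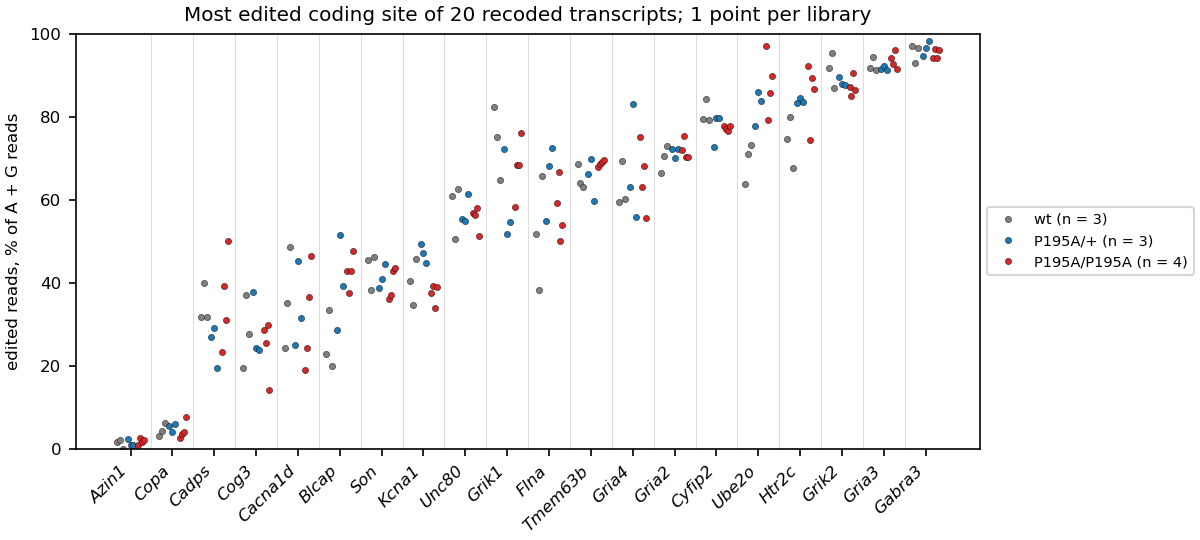
Percent of A plus G reads that were G at the most edited coding site (chosen on wild-type reads) of 20 recoded transcripts, 1 point per library, ordered by the P195A/+ mean. Groups overlap in 19 genes; in Kcna1 P195A/P195A lies at 34.0 to 39.1% and P195A/+ at 44.7 to 49.3%.

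Of the 10 single sites with the smallest p, 9 were less edited in P195A/P195A, all with an edgeR adjusted p of 0.997. At 3 of them P195A/P195A had no edited read. The intronic site of Unc79, a subunit of the sodium leak channel, at chr12:102955286-102955286, had 0% in all 4 libraries (17 to 55 reads each) and 16.7, 4.00 and 13.3% in P195A/+ (18 to 50 reads). Wild type had 0, 3.85 and 0%, which is nearer to P195A/P195A.

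The remaining site was in the 3' untranslated region of Arf3, a small GTPase of the Golgi, shown because it was the 1 site of the 10 with a higher level.
Arf3, chr15:98737112-98737112, minus strand: atagcctcgaActcagaaatc
It was edited at 79.4, 73.3, 89.5 and 86.3% in P195A/P195A, against 64.6, 62.2 and 58.8% in P195A/+, at 34 to 57 reads. The ranges were apart (log2 odds ratio 1.56, SE 0.458, edgeR adjusted p = 0.997), and wild type lay lower still, at 57.4, 55.1 and 50.9%.

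Among genes, B3galt1, a galactosyltransferase, had the smallest p. Over its 8 tested sites it was edited at 7.14, 7.42, 7.27 and 7.05% in P195A/P195A, against 0.826, 1.03 and 2.06% in P195A/+, from 97 to 256 reads per library. The groups did not overlap, and the log2 odds ratio of 2.57 (SE 0.512) narrowly missed the threshold (edgeR adjusted p = 0.0757).

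Each of the next 9 genes had an edgeR adjusted p of 0.468, with 5 lower and 4 higher, and in none did the groups overlap. These genes were picked by their small p, which favours groups that stand apart. Over all 859 genes tested for editing, 8.50% did not overlap. Ralgapa1, a GTPase-activating protein with 46 tested sites, was edited at 17.5, 19.4, 17.7 and 18.3% against 23.8, 22.3 and 21.7% (log2 odds ratio -0.39). Ifrd1, a transcriptional regulator, was at 35.2, 27.6, 31.7 and 27.5% over 20 sites against 40.2, 39.8 and 44.6%. Ifnar1, a chain of the type I interferon receptor, was at 4.62, 7.94, 7.14 and 10.8% over 4 sites against 23.3, 15.6 and 17.9%. Higher were Cdk7, a kinase of transcription initiation, at 11.7 to 14% against 7.98 to 10.8%, and Fnbp1, a membrane-bending protein, at 8.97 to 11.7% against 4.99 to 8.12%.

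The mean level over the 11689 sites was 17.3, 16.8, 17.1 and 16.9% in P195A/P195A, against 17.7, 17.1 and 17.9% in P195A/+. P195A/+ replicate 2 lay within the P195A/P195A range. The difference was -0.56 percentage points (17.0 ± 0.20 against 17.6 ± 0.42, SD; exact two-sided permutation p = 0.114). It moved with the depth asked of a site, to -0.975 at a minimum of 5 reads and -0.051 at 20 reads.

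By class, introns, with 8023 of the sites, had 17.05, 16.76, 16.69 and 16.70% against 17.87, 17.08 and 18.06%. These groups did not overlap, and the difference of -0.87 points had an exact permutation p of 0.0571, the smallest possible, and 0.457 adjusted over 8 classes. It was -1.22 points at a minimum of 5 reads and -0.51 at 20 reads. Intronic sites were read at 326052 to 671290 reads per P195A/P195A library, with replicate 3 lowest and replicate 2 highest, and 435843 to 679557 per P195A/+ library. As a share of reads at all joined sites these were 48.6% in P195A/P195A replicate 3, 68.1% in replicate 2 and 53.7 to 63.3% in P195A/+. Replicates 2 and 3 were also the ends of the first principal component of gene counts. A link of this share to that component or to intron editing was not tested. The 3' untranslated regions, with 2009 sites, differed by 0.22 points in the other direction, with overlap (14.8 to 16.0% against 15.1 to 15.6%). Coding sites, 136 in number, were at 19.8 to 21.8% against 20.9 to 22.4%.

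Sites with at least 2 other listed sites within 100 bases, as long double-stranded RNA gives, were at 17.6 to 18.02% against 17.8 to 18.7%, and isolated sites at 14.2 to 14.8% against 14.7 to 15.3%. Over 10560 sites chosen with wild type included, mean levels were 16.6 to 17.1% in P195A/P195A, 16.9 to 17.7% in P195A/+ and 14.98 to 16.3% in wild type. Every library of both mutant groups lay above every wild-type library; that difference was not tested here.

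**Figure D5:**
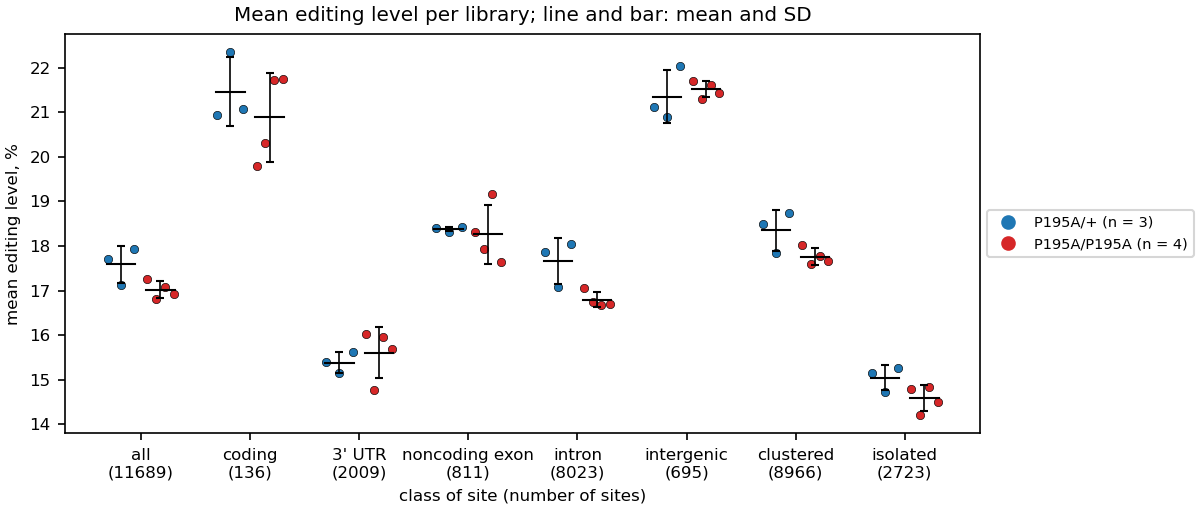
Mean editing level per library over all tested sites and by class (points), with the mean (line) and SD (bar) per genotype; the axis does not start at 0. In introns every P195A/P195A library (16.69 to 17.05%) lies below every P195A/+ library (17.08 to 18.06%), while in the other classes shown the groups overlap.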

How the data were processed

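RNA of whole brain from 13 mice was sequenced. The authors deposited expected counts (estimated counts per gene), made with fastp 0.19.5 and Salmon per the submitters' processing notes, together with tables of base calls at known editing sites, which hold reads per base and library (JACUSA2 2.0.0-RC5, genome mm10, by the same notes). No read aligner is named there. The rounded estimates were fitted with edgeR 4.0.16 (R 4.3.3; quasi-likelihood, robust, TMM, filterByExpr) over all 13 libraries with a coefficient per genotype; 19962 genes were tested (biological coefficient of variation 19.1%). Of 54307 entries 51482 matched GENCODE M21. An adjusted p under 0.05 (Benjamini-Hochberg) was called. DESeq2 1.42.0 and limma 3.58.1 (voom) were alternatives. Editing used edgeR on edited and unedited reads per library, summed per gene where at least 3 sites were tested. Single values were compared by exact permutation in Python 3.11.15, with tables made in pandas 2.3.3. The edgeR tests of genes, of the difference of steps and of single sites were run on simulated data with known changes. At a log2 fold change of 1, 58% of changed genes were recovered between the genotypes and 8% for the difference of steps. At a log2 fold change of 0.5, 23% were recovered between the genotypes. At a log2 odds ratio of 2, 30.5% of changed sites were recovered. A gene or site not called may therefore still differ. Library totals limit low genes and read depth limits single sites; p-values measure the spread between these animals.

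The members, gene lists and tests were chosen with earlier results of these data known. Genes to be named were Adar, Adarb1 and Adarb2, the genes from Adar to Tpm3 and passing genes of at least 1 CPM. The rule added the 10 smallest p outside that interval, the 2 smallest p of each list, sex genes and 4 genes of earlier results. Not every gene under the rule is printed here. Other members are examples chosen after their values were seen. Named sites and genes for editing were the 10 with the smallest p and, per recoded gene, the coding site with the most reads.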

Additional observations from a re-analysis of the deposited data

Results flagged for a closer look

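Of 145 groups of 4 P195A/P195A values that were screened, 8 held 1 library far from the other 3 by Dixon's criterion; chance alone gives about 1 in 20. Replicate 3 stood high in 4 of them: Serpini1, a neuronal protease inhibitor, at 364 CPM, Olig1, an oligodendrocyte transcription factor, at 91.8 CPM, Ier2, an immediate early gene, at 7.91 CPM, and the summed ATF4 targets at 748 CPM. Replicate 4 stood low in the summed olfactory bulb list, at 754 CPM. Among editing levels, Atp1b1 (chr1:164445436-164445436) stood at 3.12% in replicate 3 and at 0% in the others. Nrxn3 (chr12:89862950-89862950) stood at 0% in replicate 4, where the others were at 3.23 to 3.77%. Cog3 (chr14:75719703-75719703) stood at 2.86% in replicate 1 and at 0% in the others. For Atp1b1 and Cog3 the other 3 values tie at 0%, so the criterion flags any level above 0%. The chance rate does not hold for such ties. Replicate 3 had 32 reads at the Atp1b1 site and replicate 1 had 70 at the Cog3 site.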

How the results depend on the processing

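The number of genes called moved with the method and the animals. Against 4, DESeq2 called 38, no filter on low counts 10, RLE scaling 5, limma-voom 2 and the contrast's own genotypes alone 1. The count was 0 with sex as a covariate, among females, at 42 to 43 days and without P195A/P195A replicates 2 and 3, and it ran from 0 to 11 when single replicates were left out. For the difference of the 2 steps, 0 in edgeR, DESeq2 called 34, limma-voom 2 and the contrast's own genotypes 2. No alternative called an editing site or an edited gene.

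A fit with the replicate block called 2 genes, Cdhr1 and Dcx. Same-numbered libraries deviated together with correlations of 0.016, 0.24 and 0.21, so the numbers were not taken as pairs. With replicates 1 to 3 paired by number, the weight difference was -2.63 g and the mean editing difference -0.53 points. An exact test that flips the signs of the paired differences gave p = 0.25 for each, the lowest value that it allows here.

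Directions turned in few named genes. Adarb1 was at 0.0477 among females and 0.0346 without P195A/P195A replicates 2 and 3, with -0.144 to 0.0234 when single replicates were left out. At 42 to 43 days, 4933434E20Rik was at -0.0993, Hax1 at -0.0128 and Laptm5 at -0.0886; leaving out single replicates put 4933434E20Rik at -0.0446 to 0.184. Gm3608, near 0 counts, was at 0.30 in limma-voom and 0.0339 with the replicate block, and at -0.63 to 1.30 when single replicates were left out. Over 79 named genes and edited genes, with the sex genes and the site classes not counted, 1224 values under an alternative kept direction and side of the threshold, 21 newly passed, 45 no longer passed and 12 turned.

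Among site classes, 5' UTR sites (15) turned to 0.676 points by edited reads over all reads and 0.860 among females, and ran from -0.998 to 0.417 without single replicates. Intergenic sites turned to -0.0545 by edited reads over all reads and -0.00376 at 20 reads, and ran from -0.0423 to 0.506. Noncoding exons ran from -0.504 to 0.152, and isolated sites turned to 0.128 at 20 reads. The cause was not tested. At 42 to 43 days list medians were lower in astrocyte (-0.22), choroid plexus (-0.29), MHC class I (-0.31), ATF4 (-0.28) and blood genes (-1.05), and among females MHC class I was at -0.04 and ATF4 at -0.06. Depth limits single sites and low genes.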
